A study of Mus musculus with 8 samples.

Results

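The cytosolic ribosomal protein genes were followed on 8 bead arrays of mouse RNA. They were taken by symbol: Rpl or Rps with a number, Rplp0, Rplp1, Rplp2 and Rpsa, without the Rps6k kinases and Rps19bp1. The rule found 65 of the 16559 genes on the array, 40 of the large subunit and 25 of the small subunit, read by 83 probes. It also took in Rps23rg1, whose symbol marks a retrogene, and 6 genes whose symbols mark paralogs. The arrays held RNA of double knockout, Nsun2-/-, Dnmt2-/- and wild-type mouse embryonic fibroblasts (MEFs), and of livers of the same 4 genotypes, with 1 array for each of the 8 groups. Dnmt2 (symbol Trdmt1) and Nsun2 are enzymes that methylate cytosines in transfer RNAs, and the series asks what their loss does to tRNA stability and protein synthesis. The MEFs came from embryos of day 13.5, had been immortalized by transfected SV40 large T antigen and were taken at passage 9. The livers came from mice of 2 months, and all groups carry the strain label CBA/C57BL6j x B6;129, a mixed background. Nothing in the labels says that an array pools several animals, and a MEF genotype is 1 array of cultured cells, so a genotype cannot be told apart from the animal or culture behind it.

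Ribosomal proteins join ribosomal RNA in a small subunit, which reads the messenger RNA, and a large subunit, which links amino acids. Their mRNAs are among the most abundant in growing cells, and most belong to the TOP mRNAs, which start with a C followed by a run of pyrimidines and whose translation follows growth signals through mTOR. Several of the genes have paralogs, and many have processed pseudogenes of near-identical sequence, so a probe may also read a copy. The probes' own sequences were not used here, and that was not tested.

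The sequences at the annotated gene starts show which members open with a pyrimidine tract. They come from the RefSeq promoter table of GRCm38.p6, which held 56 of the 65 genes. A tract, defined as a C at the start followed by at least 4 C or T, was present in 11 of these 56 (19.6%) and in 3.01% of the 27025 genes in the table. Each line below gives 15 bases on either side of the start of a member that returns in the results, with the tract in capitals where there is one, for the first start listed where the table has several. The first 5 have a tract, and the others are 4 paralogs, with Rpl36a and Rpl22 below their paralogs.
Rpl14, chr9:120571502-120571531, plus strand: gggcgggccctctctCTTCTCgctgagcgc
Rpl38, chr11:114668565-114668594, plus strand: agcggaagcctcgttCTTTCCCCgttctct
Rps15a, chr7:118116133-118116162, minus strand: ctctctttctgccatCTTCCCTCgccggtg
Rpl35, chr2:39005117-39005146, minus strand: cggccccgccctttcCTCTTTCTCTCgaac
Rps27, chr3:90213634-90213663, minus strand: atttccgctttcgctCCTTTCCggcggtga
Rps27l, chr9:66946071-66946100, plus strand: ccactcctccccgccgcctctatcccggaa
Rpl36al, chr12:69184053-69184082, minus strand: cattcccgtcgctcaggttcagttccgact
Rpl36a, chrX:134585639-134585668, plus strand: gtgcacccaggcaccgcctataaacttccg
Rpl22l1, chr3:28805493-28805522, plus strand: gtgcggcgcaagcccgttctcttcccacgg
Rpl22, chr4:152325711-152325740, plus strand: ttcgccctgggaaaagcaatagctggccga
Rpl7l1, chr17:46782642-46782671, minus strand: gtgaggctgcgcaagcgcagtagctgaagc
None of the 4 paralogs has the tract at the annotated start, and of their partners Rps27 has it while Rpl36a and Rpl22 do not, like 45 of the 56 members. For many members a pyrimidine run lies a few bases from the annotated start, so the share counts exact starts only.

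The 250 bases before the start are shown for Rps27 and Rps27l, as an example of a member and its paralog. Capitals mark AAGATGG, or its reverse complement, a motif of the YY1 type.
Rps27, chr3:90213649-90213898, minus strand: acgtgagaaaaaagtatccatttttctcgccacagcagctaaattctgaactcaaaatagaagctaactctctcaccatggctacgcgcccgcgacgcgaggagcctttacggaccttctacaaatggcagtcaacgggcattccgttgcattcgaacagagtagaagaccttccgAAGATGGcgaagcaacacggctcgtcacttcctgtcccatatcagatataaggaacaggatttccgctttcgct
Rps27l, chr9:66945836-66946085, plus strand: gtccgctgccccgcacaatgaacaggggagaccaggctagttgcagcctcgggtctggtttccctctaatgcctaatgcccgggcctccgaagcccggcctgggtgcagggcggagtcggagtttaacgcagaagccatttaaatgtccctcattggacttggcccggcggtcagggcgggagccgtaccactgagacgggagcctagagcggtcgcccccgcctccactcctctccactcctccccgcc
On either strand, from 250 bases before to 50 after the start, AAGATGG was found in 10 of the 56 members (17.9%) and in 7.28% of all genes in the table. CCGGAAG, a motif of the ETS type, was found in 22 members (39.3%) and in 9.93% of all genes, and TATAAA in 6 members (10.7%) and in 15.7% of all genes. The last 3 motifs were chosen after the arrays had been analysed.

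The arrays detected 13019 to 13409 of 25608 probes in MEFs and 11585 to 11688 in livers, with detection p-values under 0.01. Hepatocyte markers had a median log2 signal of 13.57 to 13.70 on the liver arrays and 4.15 to 4.21 on the MEF arrays. Fibroblast markers had medians of 7.39 to 9.58 on the MEF arrays, lowest in the double knockout, and 4.38 to 4.68 on the liver arrays. Erythroid markers were at 7.07 to 9.04 in livers and close to background in MEFs. The double knockout MEF array stood apart from the other 3 MEF arrays, with correlations of 0.978 to 0.979 across genes against 0.986 to 0.989 among the others. Nsun2 was not detected on the arrays labelled Nsun2-/- or double knockout, nor on the Dnmt2-/- liver array. Trdmt1 was near background on all arrays and was called detected in double knockout and Dnmt2-/- MEFs but not in wild-type MEFs, so its probe gave no check of those labels. Eif2s3y, a gene of the Y chromosome, was not detected in double knockout and Nsun2-/- MEFs (4.10 and 4.09) and was detected in Dnmt2-/- and wild-type MEFs (6.78 and 7.85) and in all livers. Sex and Nsun2 genotype therefore cannot be told apart in the MEFs. Xist, an RNA of the inactive X chromosome, was detected in double knockout, Nsun2-/- and Dnmt2-/- MEFs (6.07, 5.90 and 4.58) but not in wild-type MEFs (4.47). In livers it was detected at a low level in the same 3 genotypes (4.85, 5.21 and 5.48) and not in wild type (4.51). Why Xist and Eif2s3y were both detected on some arrays was not tested.

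Of the 65 genes, 53 were detected on all 8 arrays and 7 on some of them, and 59 were detected on at least 2 arrays and entered the tests. Rpl17, Rplp2, Rps23 and the paralogs Rpl39l and Rpl3l, known from testis and from heart and muscle, were detected on no array. Rpl6 was detected on the wild-type MEF array alone. Rplp2 and Rps23 belong to every ribosome, and why these probes gave no detected signal was not tested. The members were among the brightest features of the arrays. They gave 4.97% to 5.61% of the summed intensity of the MEF arrays and 3.07% to 3.13% of that of the liver arrays. Of the 256 brightest probes of each array, 39 to 42 were members' probes in MEFs and 20 to 23 in livers.

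The members were higher in MEFs than in liver, which is the difference between an immortalized embryonic cell culture and an adult organ. In limma, with both genotypes as covariates, 48 of the 59 tested members were higher in MEFs at an adjusted p under 0.05 (81.4%), against 38.7% of the 10491 genes tested. Rpl36al alone was lower (1.69%), against 28.6% of all genes, and 10 members did not pass. The members' median difference was 1.10 on the log2 scale and that of all tested genes 0.14. Bright genes as a whole were more often higher in MEFs. Of the 39 members with a mean log2 signal above 12, 35 were higher with a median of 1.22, against 61.9% and a median of 0.75 for all 168 genes of that signal, members included. Of the 20 dimmer members 13 were higher with a median of 0.81, against 38.3% and a median of 0.13 for all genes of that signal. The split at 12 was chosen after the values had been seen. For 49 members every MEF array lay above every liver array, as it did for 36.0% of all genes. For 1 member every MEF array lay below every liver array, as for 26.6% of all genes. The large subunit had 30 of 35 members higher and a median of 1.14, and the small subunit 18 of 24 and a median of 1.08. When the arrays were scaled to the same median instead of quantile-normalized, 50 members were higher and the members' median was 1.06, while the median of all genes moved to 0.51. Under that scaling 71.7% of all called genes were higher in MEFs, against 57.4% in the reported fit. These are bulk RNA samples, in which more cells of a type and more RNA per cell cannot be told apart, and cell type, age, culture and immortalization cannot be told apart either.

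The difference was present within each genotype. Its median over the 59 members was 1.03 between the double knockout arrays, 1.18 between the Nsun2-/- arrays, 1.14 between the Dnmt2-/- arrays and 1.22 between the wild-type arrays. The medians of all genes in the same pairs were 0.15, 0.13, 0.13 and 0.18. Between 54 and 57 of the 59 members were higher in the MEF array of a pair, against 55.0% to 56.3% of all genes.

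**Figure D1:**
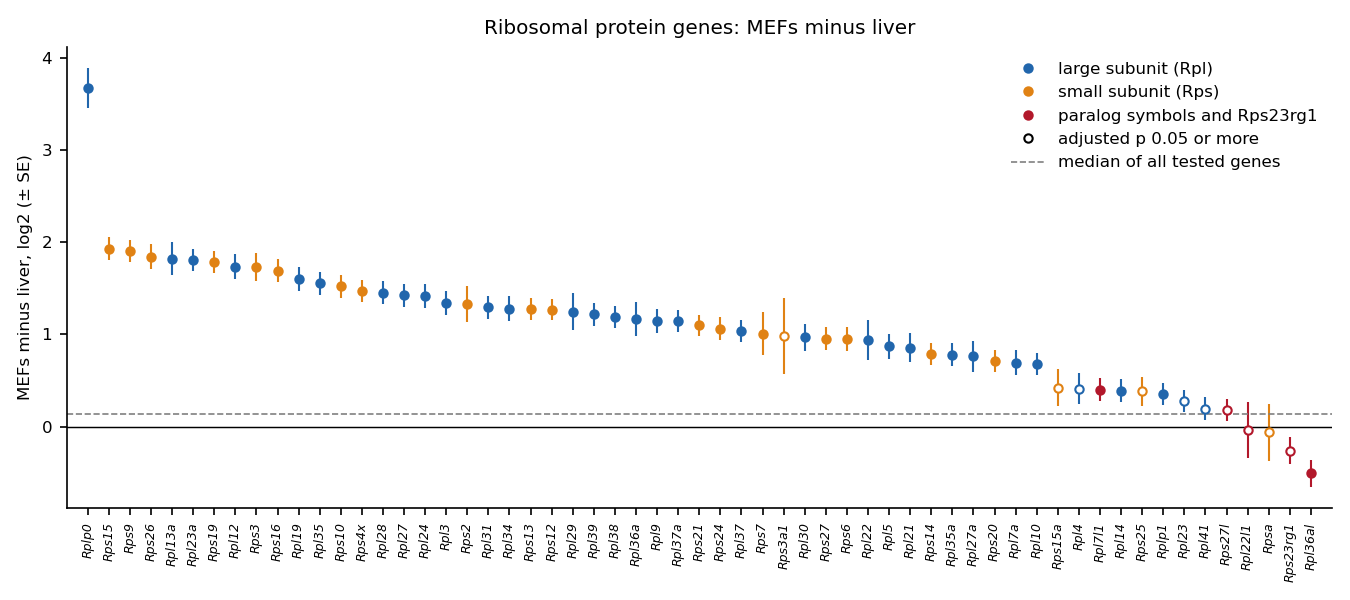
MEFs minus liver for the 59 tested ribosomal protein genes, as the log2 difference from limma with its standard error, ordered by size. Filled points passed an adjusted p of 0.05: 48 lie above 0, with Rplp0 at 3.68 apart from the rest, and 1, Rpl36al, lies below at −0.51.

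Rplp0 carries the stalk of the large subunit, to which translation factors bind, and had the largest difference of the members. Its log2 signal was 9.85, 10.32, 9.97 and 11.13 in double knockout, Nsun2-/-, Dnmt2-/- and wild-type MEFs, against 6.72, 6.59, 6.38 and 6.87 in the livers of those genotypes. The groups are far apart, and the wild-type array is the highest within each sample type. The difference was 3.68 (SE 0.217), or 12.8-fold, with a limma adjusted p of 1.55e-06. A second, dimmer probe of Rplp0 was detected on the Nsun2-/-, Dnmt2-/- and wild-type MEF arrays (5.24, 4.79 and 5.37) and on no liver array, so it gives a direction without a measured size. Rplp1, which sits on the stalk with Rplp2, was at 14.38, 14.32, 14.41 and 14.38 in MEFs in that order of genotypes, against 14.07, 14.11, 13.96 and 13.96 in livers. All 4 MEF arrays were above all livers, by 0.35 (SE 0.121, limma adjusted p 0.0309). That difference was 0.04, with an adjusted p of 0.802, when arrays were scaled to the same median, and leaving out any of 6 of the 8 arrays also put its adjusted p above 0.05. The probes of these partners on the stalk thus lie far apart in the members' range of differences. They also lie far apart in signal. In livers, where the members' median signal was 11.93 to 12.01, Rplp0 was at 6.87 or below and Rplp1 at 13.96 or above. Whether signal near the top of the scale narrows the Rplp1 difference was not tested.

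The next largest differences were those of Rps15, Rps9, Rps26, Rpl13a and Rpl23a, from 1.93 to 1.81. Rps15 lies at the decoding site of the small subunit. It was at 12.84, 12.95, 12.65 and 12.93 in double knockout, Nsun2-/-, Dnmt2-/- and wild-type MEFs, against 10.76, 11.04, 10.85 and 10.99 in the livers. This was 3.82-fold (1.93, SE 0.121, limma adjusted p 2.14e-06), and every MEF array was well above every liver array. Rps9, at the entry of the mRNA channel, averaged 13.19 ± 0.07 in MEFs and 11.28 ± 0.10 in livers (SD, n = 4 each, over the 4 genotypes). Rps26, near the exit of that channel, averaged 13.98 ± 0.15 in MEFs and 12.14 ± 0.10 in livers. Rpl23a, which docks nascent-chain factors at the exit tunnel, averaged 13.29 ± 0.05 in MEFs and 11.48 ± 0.03 in livers. Their SDs are small beside the gap between sample types. Rpl13a, known in human cells also for a role in translational silencing outside the ribosome, varied more, with 10.93 ± 0.41 in MEFs and 9.11 ± 0.13 in livers.

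By place in the ribosome, all 5 tested members of the exit tunnel rim were higher in MEFs (median 1.56), among them Rpl35 at 1.56, Rpl31 at 1.29 and Rpl39 at 1.22. Of all tested members 81.4% were higher, against 38.7% of all tested genes. The places and lists given here hold few members and were not compared with the other members. Of a short list for the mRNA channel and decoding site (Rps2, Rps3, Rps15 and Rps23), the 3 that were tested were higher: Rps15, Rps3 at 1.73 and Rps2 at 1.33. Rpl5, which carries ribosomal RNA in a complex that also binds Mdm2, was higher by 0.87 (SE 0.137). A list was also made of mouse counterparts of genes mutated in Diamond-Blackfan anaemia, a human failure of red cell formation. All 11 of its genes that were on the array were higher, with a median of 1.29. Among the 11 were Rps19 at 1.79 and Rps24 at 1.06. The list does not hold Rps15a, which did not pass, and it was not checked for completeness. Erythroid markers were higher in the livers, and their part in these values was not tested. The 10 tested members with a pyrimidine tract at the annotated start had a median difference of 1.03, and the 41 without one 1.15. The median was 0.95 over the 10 with AAGATGG and 1.17 over the 41 without it. It was 1.10 over the 19 with CCGGAAG and 1.14 over the 32 without it, and 1.19 over the 6 with TATAAA and 1.10 over the 45 without it.

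The 11 tested members that were not higher in MEFs included 3 paralogs. The 4 tested paralogs had a median difference of 0.07, with 1 higher and 1 lower. Without the paralogs and Rps23rg1, 47 of 54 members were higher and none lower, with a median of 1.16. The paralogs were picked by symbol, and their number is small.

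Rpl36al, an intronless paralog of the X-linked Rpl36a, was at 12.10, 12.56, 12.35 and 12.79 in double knockout, Nsun2-/-, Dnmt2-/- and wild-type MEFs, against 12.99, 12.93, 12.94 and 12.98 in the livers. All MEF arrays were below all livers, by 0.51 (SE 0.148, limma adjusted p 0.0159). Without the double knockout liver array the difference was −0.41 with an adjusted p of 0.0543, and no member was then called lower. Rpl36a itself was at 11.84, 12.51, 12.10 and 12.42 in MEFs, against 11.18, 11.08, 11.14 and 10.81 in livers. It went the other way, higher by 1.17 (SE 0.183, adjusted p 0.000592). The 2 genes of this pair, each read by its own probe, therefore differ in opposite directions between MEFs and liver.

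Rps27 was at 13.26, 13.47, 13.37 and 13.39 in double knockout, Nsun2-/-, Dnmt2-/- and wild-type MEFs, against 12.38, 12.44, 12.46 and 12.39 in livers. It was higher by 0.95 (SE 0.121, limma adjusted p 0.000164). Rps27l, which p53 induces in human cells, was at 12.96, 13.04, 12.90 and 12.91 in MEFs, against 12.76, 12.82, 12.83 and 12.69 in livers. Its difference of 0.18 (adjusted p 0.218) did not pass. It was −0.09 under scaling to the same median, and with no background correction 0.18 passed as higher (adjusted p 0.0494), so it has no settled direction. Rpl7l1, tied in human cells to ribosome assembly, differed by 0.40 (SE 0.126, adjusted p 0.0218). A second probe of Rpl7l1 differed by −0.37, and the mean of both probes gave 0.01. The call was also lost without the Nsun2-/- MEF array, the Nsun2-/- liver array or the double knockout liver array (adjusted p 0.0603 to 0.0756). Rpl22 was higher by 0.94 (SE 0.220, adjusted p 0.00544), and its paralog Rpl22l1 lay at −0.04 (adjusted p 0.926) near background. The sign of Rpl22l1 turned under scaling to the same median (0.27).

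Of the other members that did not pass, Rpsa, the laminin receptor precursor, was detected on 3 arrays and Rps23rg1 on 2. Rpl41 (0.19) and Rpl23 (0.28) are among the brightest probes of every array, and whether that narrows their differences was not tested. The 2 other Rpl23 probes detected on all arrays differed by 0.68 and −0.49, so Rpl23 has no settled direction. Rps25 (0.38, adjusted p 0.0591), Rpl4 (0.41, 0.0629), Rps15a (0.42, 0.0904) and Rps3a1 (0.98, 0.0622) were above 0 without passing. As well as Rps27l, each of Rpl23, Rps25, Rpl4, Rps15a and Rps3a1 passed under at least 1 other setting. Rpl14, counted among the 48, was detected on 2 MEF arrays and on no liver array, and so its difference of 0.39 is no measured size. Its call was lost under an offset of 50, both other normalizations and the authors' values, and without either wild-type or either Nsun2-/- array (adjusted p 0.0546 to 0.130). Rpl27a, also among the 48, lost its call with the mean over probes (0.28, limma adjusted p 0.179). Its second probe, detected on 5 arrays, differed by −0.21.

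Other growth-linked genes allow the members to be placed. Of 15 tested genes outside the members that carry TOP mRNAs, 14 were higher in MEFs and 1 lower, with a median of 1.22. Eef1g, a subunit of the elongation factor that delivers tRNA, was higher by 1.44, Npm1, a nucleolar chaperone, by 1.62, and Fau, which encodes a ribosomal protein fused to a ubiquitin-like domain, by 1.47. Tpt1 was the 1 that was lower, at −0.40, read by a dim probe at 5.07 to 5.79 over the 8 arrays. Eef1a1, counted among the 14, was also dim and was detected on 5 arrays. Of 38 tested genes of ribosome biogenesis, 24 were higher and none lower, with a median of 0.63; Fbl, the methyltransferase of box C/D particles, was higher by 1.64 and Polr1a, the largest subunit of RNA polymerase I, by 2.09. Ribosomal protein genes of the mitochondrion went differently: of 70 tested, 11 were higher in MEFs and 28 lower, with a median of −0.25. Over all tested genes 38.7% were higher and 28.6% lower. The lists were not tested against each other.

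No member, and no gene among the 10491, passed an adjusted p of 0.05 for the loss of Dnmt2, the loss of Nsun2, their interaction, either loss within MEFs or within livers, or the difference between these, in limma. At an unadjusted p under 0.05 there were 2 members for Dnmt2 loss (3.39%, against 3.99% of all genes) and 2 for Nsun2 loss (3.39%, against 4.21%). The interaction had 0 members (404 genes, 3.85%). Within MEFs there were 5 members for Dnmt2 loss (8.47%, against 6.45%) and 0 for Nsun2 loss (4.91% of genes). Within livers there were 0 for Dnmt2 loss (4.37% of genes) and 2 for Nsun2 loss (3.39%, against 6.31%). For the difference of the Dnmt2 effect between MEFs and liver there was 1 member (1.69%, against 5.51%), and for that of the Nsun2 effect 0 (5.23% of genes). The 5 members for Dnmt2 loss in MEFs were Rpl4, Rplp0, Rpl13a, Rpl36al and Rpl36a, all lower. Rpl4, which lines the exit tunnel, had the smallest p (−0.72, SE 0.198, adjusted p 0.592), and Rplp0 followed at −0.81 (SE 0.265, adjusted p 0.706). Rpl21, a dim probe of a large-subunit gene, had the smallest p of the members for Nsun2 loss over both sample types (−0.69, SE 0.159, adjusted p 0.965). The members' median was −0.05 for Dnmt2 loss and 0.00 for Nsun2 loss over both sample types, and −0.12 for Dnmt2 loss in MEFs. With 2 to 4 residual degrees of freedom, these fits may miss changes that exist.

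Most members hardly moved between genotypes. Over the 59 tested members the range across the 4 MEF arrays had a median of 0.30, and 43 of 59 stayed within 0.5. Across the 4 liver arrays the median range was 0.20, and 51 of 59 stayed within 0.5. The residual SD of the additive fit had a median of 0.109 over the members and 0.236 over all tested genes. A mean signal above 12 was found for 39 of the members and for 168 of all tested genes, and the SDs were not compared at matched signal. Differences between 2 arrays are given below without a test, and a member counts where it differs by at least 1.5-fold.

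The largest group of differences was between the double knockout and wild-type MEF arrays. Of 59 members, 11 were at least 1.5-fold lower in the double knockout (18.6%, against 9.69% of all genes) and none was higher (10.4% of all genes). At least 2-fold lower were 7 (11.9%, against 2.82%), and none was 2-fold higher (3.98% of all genes). The members' median was −0.16 and that of all genes −0.03, and 45 of 59 members were below 0, against 5105 of 9683 genes. Nsun2-/- MEFs had 4 of 59 members lower than wild type (6.78%, against 4.36%) and none higher (6.14% of all genes), with a median of −0.03. Dnmt2-/- MEFs had 2 of 60 lower (3.33%, against 5.16%) and none higher (7.28% of all genes), with both also at least 2-fold lower (against 0.883%). The median for Dnmt2-/- was −0.09 and 46 of 60 members were below 0, against a median of −0.04 and 5255 of 9742 for all genes. Under scaling to the same median the members' median for Dnmt2-/- was −0.26 and that of all genes −0.07. In the reported values its 43 members with a mean signal above 12 had a median of −0.07, the same as all genes of that signal. Its 17 members under 12 had a median of −0.24, against −0.04 for all genes of that signal. These pairs share the wild-type array, and Rplp0 and Rps3a1 are counted as lower in all of them.

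Set against the single knockouts, the double knockout MEF array had 8 of 56 members lower than Nsun2-/- (14.3%, against 9.21% of all genes) and none higher (10.3%). It had 7 of 59 lower than Dnmt2-/- (11.9%, against 9.37%) and none higher (9.45%). The counts against the single knockouts are closer to the background than the count against wild type, and all 3 share the double knockout array that stands apart.

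The highest members of the MEF pairs stayed under 1.5-fold. Rpl24, a late-joining protein of the large subunit, was at 13.57, 13.41, 13.28 and 13.22 in double knockout, Nsun2-/-, Dnmt2-/- and wild-type MEFs, and its difference of 0.35 was the highest between double knockout and wild type. Rps16 (0.24) and Rps20 (0.19) followed in that pair. Rps16 (0.28), Rpl24 (0.19) and Rpl7a (0.18) were the highest between Nsun2-/- and wild type. Between double knockout and Dnmt2-/- the highest were Rpl30 (0.41), Rpl19 (0.35) and Rpl24 (0.30), and between double knockout and Nsun2-/- they were Rpl29 (0.33), Rps20 (0.20) and Rps24 (0.17). Of the members detected on both arrays, Rpsa (0.16), Rpl22 (0.12) and Rps16 (0.10) were the highest between Dnmt2-/- and wild type. These values of up to 0.41 compare with lowest values of −0.94 to −1.29 in the same MEF pairs.

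In livers the counts were small. Lower than wild type were 2 of 57 members in the double knockout (3.51%, against 6.99%), 1 of 56 in Nsun2-/- (1.79%, against 6.87%) and 1 of 57 in Dnmt2-/- (1.75%, against 5.94%). Higher were none in the double knockout (7.47% of all genes), 1 in Nsun2-/- (1.79%, against 6.58%) and 1 in Dnmt2-/- (1.75%, against 5.50%). The double knockout liver had 3 of 57 lower (5.26%, against 5.88%) and 2 higher (3.51%, against 6.83%) than Nsun2-/-. It had 3 of 58 lower (5.17%, against 6.41%) and 2 higher (3.45%, against 7.68%) than Dnmt2-/-. All these shares at 1.5-fold are below those of all genes, most of which are dimmer than the members. Under a mean signal of 12, the double knockout had 3 of 29 members lower than Dnmt2-/- (6.59% of all genes of that signal). It had 3 of 27 lower than Nsun2-/- (6.02%). Lower than wild type at that signal were 2 of 28 in the double knockout (7.21%), 1 of 27 in Nsun2-/- (7.07%) and 0 of 30 in Dnmt2-/- (6.07%). The 3 members lower than in Dnmt2-/- liver, Rps3a1, Rps15a and Rpl21, were also at least 2-fold lower, which is 5.17%, against 1.76% of all genes. Of these, Rps15a and the Rpl21 probe used were not detected in the double knockout liver, so their values are bounds. A second Rpl21 probe, detected on all 8 arrays, differed by −0.45 in this pair. In the other liver pairs 0 or 1 member was 2-fold lower or higher, at most 1.79% of the members, against 0.995% to 1.53% of all genes. Among members detected on both arrays, Rpl3 and Rpl34 were among the 3 highest in double knockout minus Nsun2-/- livers, at 0.28 and 0.19.

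**Figure D2:**
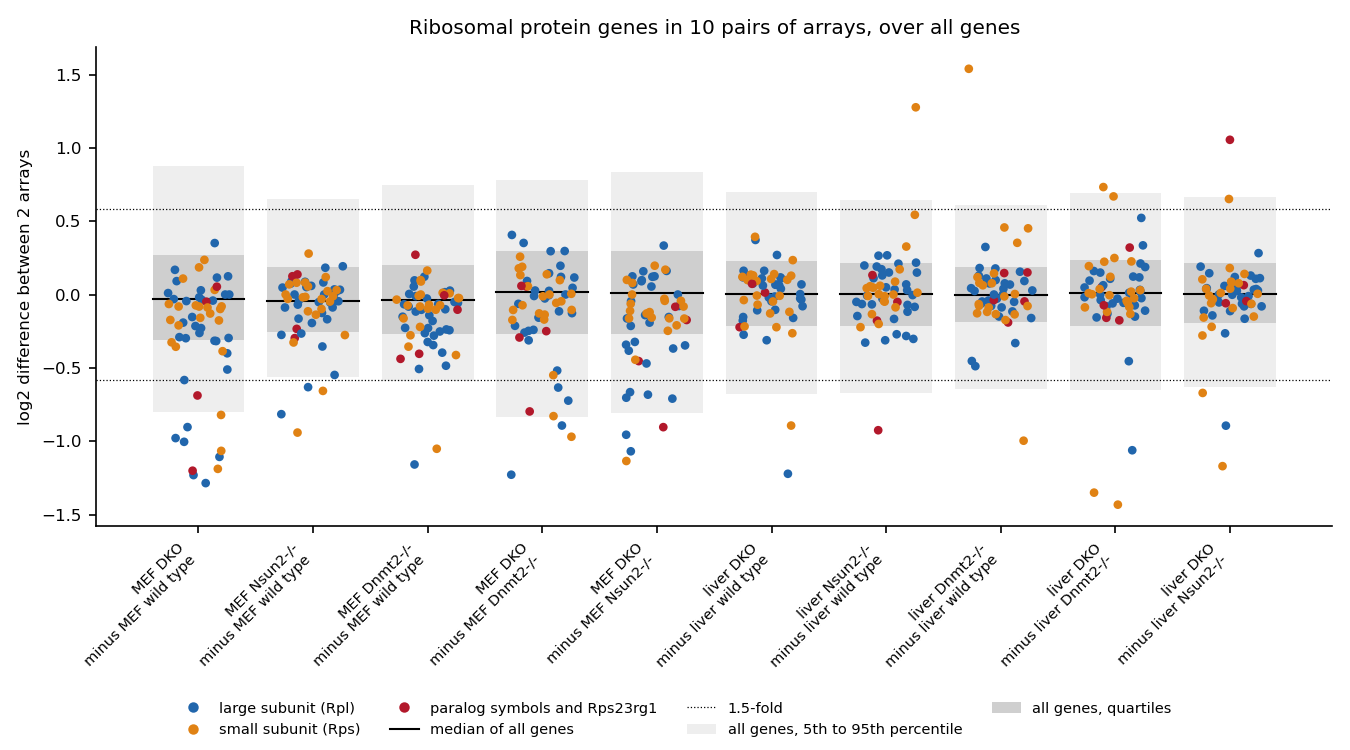
Log2 differences of the ribosomal protein genes (points) between 2 arrays in 10 pairs, with the spread of all genes behind them in grey and dotted lines at 1.5-fold. In the double knockout minus wild-type MEF pair 11 of 59 members lie below the lower line and none above the upper one, while in the livers 2 of 57 lie below.

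The members that were lower in double knockout MEFs were mostly the dimmer ones. Of 16 members with a mean log2 signal under 12 on the 2 arrays, 9 were at least 1.5-fold lower, against 9.84% of all genes of that signal, and 15 of the 16 were below 0. Of 43 brighter members 2 were lower, against 4.75% of all genes of that signal. The median difference was −0.86 over the 16 dimmer members and −0.08 over the 43 brighter ones. In the livers 2 of 28 dimmer members were at least 1.5-fold lower in the double knockout (7.21% of all genes) and 0 of 29 brighter ones (0.352% of all genes).

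**Figure D3:**
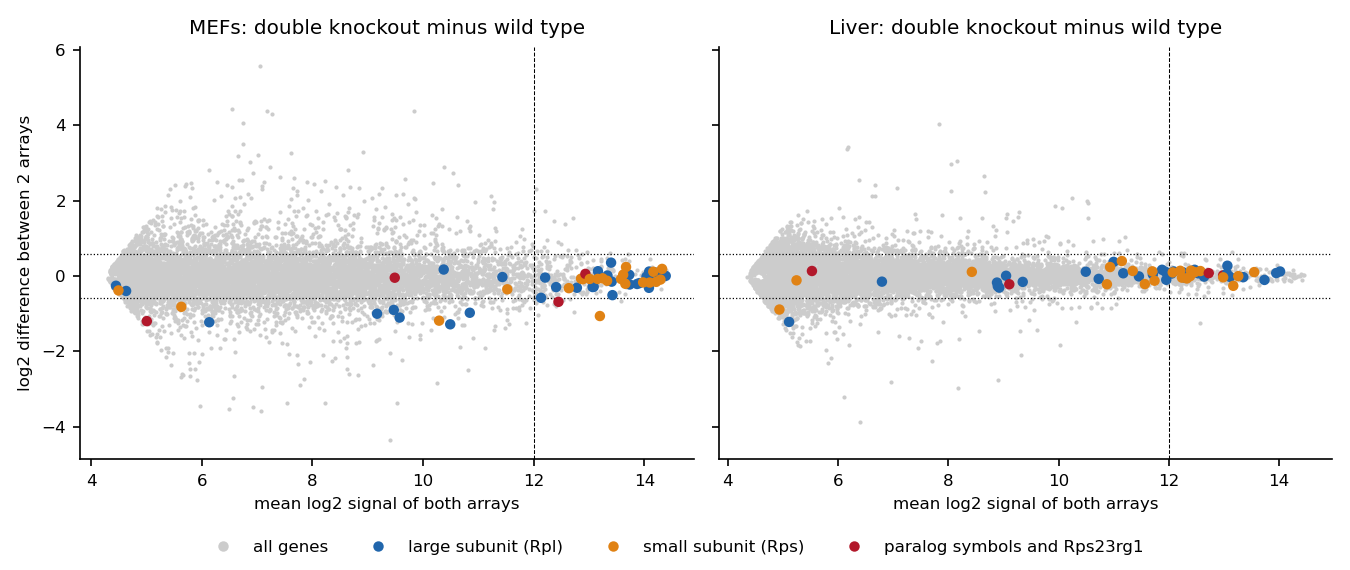
Double knockout minus wild type (log2 difference between 2 arrays) against the mean log2 signal of both arrays, for all genes (grey) and ribosomal protein genes (coloured), in MEFs and in livers. In MEFs 9 of the 16 members left of the dashed line at 12 lie below the lower dotted line at 1.5-fold, and 2 of the 43 right of it.

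Rplp0 had the lowest value of this pair, 9.85 in the double knockout and 11.13 in wild-type MEFs (−1.29). It was also lower in Nsun2-/- (10.32, −0.82) and Dnmt2-/- MEFs (9.97, −1.16), so that the wild-type MEF array is the highest of the 4. In livers its values were within 0.49 of each other. Rpl21 was at 5.52, 6.20, 6.24 and 6.75 in double knockout, Nsun2-/-, Dnmt2-/- and wild-type MEFs. Both its probes were lower in the double knockout than in wild type, with differences of −1.23 and −1.05. Rpl13a was at 10.35, 11.06, 10.99 and 11.33 in the same order.

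In other members the double knockout array alone stood low. Rps7, which can bind Mdm2, was at 12.66 in double knockout MEFs, against 13.80, 13.63 and 13.73 in Nsun2-/-, Dnmt2-/- and wild-type MEFs. It is the only member with a mean signal above 13 among the 11. Rpl22, which is not needed for translation but for the development of some T cells, was at 9.02, against 10.09, 10.25 and 10.13. Rpl27a was at 9.02, against 9.73, 9.91 and 9.92. Rpl4 was lowest in double knockout MEFs as well (8.67), but Dnmt2-/- MEFs (9.18) were also below Nsun2-/- and wild-type MEFs (9.62 and 9.67). In livers these 4 genes moved by less than 0.5 between genotypes. The others of the 11 were Rpl36al (−0.69), Rps15a (−0.82), Rpl22l1 (−1.20, not detected in the double knockout and so a bound) and Rps3a1 (−1.19).

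**Figure D4:**
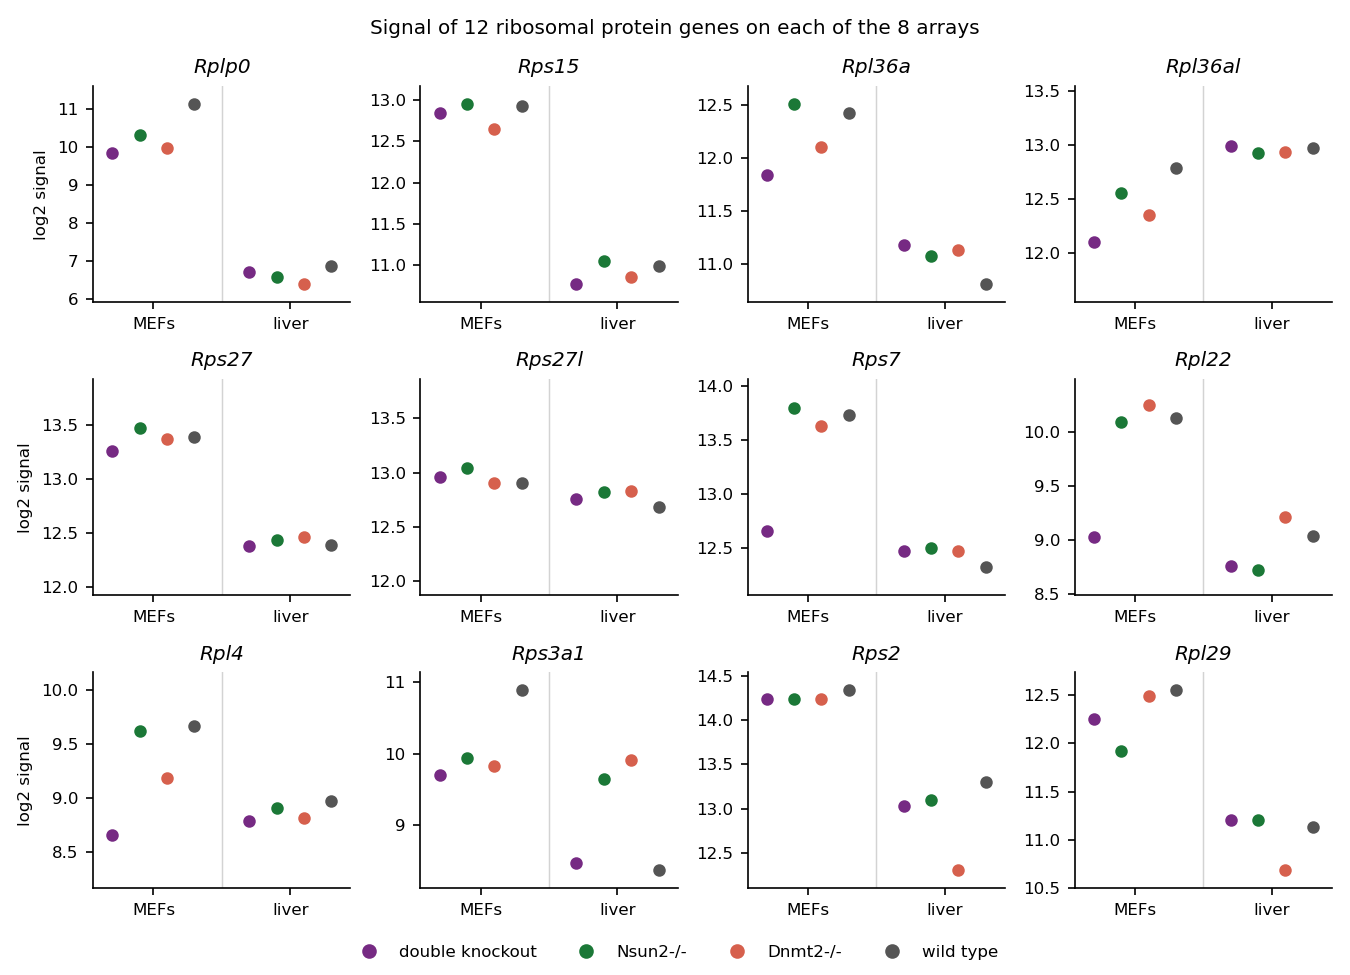
Log2 signal of 12 ribosomal protein genes on each of the 8 arrays, with MEFs left and livers right in each panel and 1 point per genotype. Rps7 and Rpl22 are low in double knockout MEFs alone (12.66 and 9.02), Rps3a1 is highest in wild-type MEFs (10.88), and Rps2 is lowest in Dnmt2-/- liver (12.30).

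Probes of the same gene did not always move together. Of 15 members with more than 1 probe, 8 had at least 2 probes that were detected on all arrays. For double knockout minus wild-type MEFs these differed by a median of 0.31 between probes of a gene, with the same sign in 7 of 8. A bright Rpl23 probe was at 14.05 in double knockout and 14.08 in wild-type MEFs, and a dim one at 7.79 and 8.81. The bright Rps24 probe was at 13.63 in double knockout and 13.60 in wild-type MEFs, and the dim one at 7.88 and 8.99. The bright Rpl31 probe was at 13.33 and 13.48 in these samples, and the dim one at 9.30 and 10.25. In these 3 genes the dim probe differed by about 1 on the log2 scale and the bright one by 0.15 or less. They have the widest gaps of the 8 in this pair. In the other genes the gap ran from 0.40 for Rpl38 down to 0.03 for Rps3. For Rpl29 the brighter probe was the lower one, at −0.30 against −0.12. Which transcript or copy each probe reads was not tested.

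Other probes disagreed in other pairs. The dim Rpl38 probe was at 10.30, 10.06, 9.22 and 10.74 in double knockout, Nsun2-/-, Dnmt2-/- and wild-type MEFs, while the bright one stayed between 14.20 and 14.30. A dim Rps19 probe differed by −0.88 between MEFs and liver, against 1.79 for the bright one. For MEFs minus liver the median gap between probes of a gene was 0.70, with the same sign in 6 of 8 genes.

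Single arrays stood out in livers as well. Rps2, at the mRNA entry of the small subunit, was at 13.03, 13.10, 12.30 and 13.30 in double knockout, Nsun2-/-, Dnmt2-/- and wild-type livers, with the Dnmt2-/- array apart from the other 3. In MEFs it stayed between 14.24 and 14.34. Rpl29, a large-subunit protein also known to bind heparin, was at 11.21, 11.21, 10.68 and 11.14 in those livers. Its second probe was at 9.61, 9.62, 8.59 and 9.72, so that both probes were lowest in Dnmt2-/- liver. Rps15a was not detected in the double knockout liver. The Rpl21 probe used was not detected there either (4.45, against 5.78 in wild-type liver), but a second Rpl21 probe was detected on all 8 arrays and was at 4.79 in double knockout and 4.98 in wild-type liver. These probes thus disagree in livers, by over 1 on the log2 scale. The probe used for Rps3 was highest in Nsun2-/- liver (11.49) and lowest in wild-type liver (10.95). A second Rps3 probe, also detected on all 8 arrays, went the other way, with 10.07, 10.33, 10.39 and 10.65 in double knockout, Nsun2-/-, Dnmt2-/- and wild-type livers, so Rps3 has no settled direction there.

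Differences that share no array can be set side by side. The members of a pair are read on the same arrays, so they are not replicates and their number does not measure repeatability. Dnmt2-/- minus wild type and double knockout minus Nsun2-/- both follow the loss of Dnmt2, on 4 separate arrays. Of 56 members, 33 were below 0 in both (58.9%), against 27.3% of all genes, and none was at least 1.5-fold lower in both, against 0.851% of all genes. For the loss of Nsun2, 21 of 58 members were below 0 in both pairs (36.2%), against 25.5%, and 1 was at least 1.5-fold lower in both (1.72%, against 0.748%). In livers 13 of 56 were below 0 in both pairs for Dnmt2 (23.2%, against 24.2%) and 14 of 56 for Nsun2, against 26.2% of all genes. The members' medians for Dnmt2 loss were −0.09 and −0.13 in the MEF pairs and 0.00 in both liver pairs, and no member passed in limma. Above a mean signal of 12 the members' medians in these MEF pairs were −0.07 and −0.08. Those of all genes of that signal were −0.07 and −0.01. Under 12 the medians were −0.24 over 17 members and −0.47 over 13 members, against −0.04 and 0.01 for all genes of that signal.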

How the data were processed

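Total RNA was extracted with Trizol, per the labels' protocols, and biotin-labelled cRNA was hybridized to Illumina MouseRef-8 v2 arrays, 1 per group. The deposited table that is not normalized holds an intensity per probe and array, linear and with no background subtracted as its values show. The deposited detection p-values, named per the file headers, stand beside it, with their computation not given in the sources used here. The authors' processed table, also of linear intensity, has column medians of 103.7 to 104.2 in MEFs and 107.2 to 107.9 in livers, with genes not centred; its normalization stays unknown, and it served as an alternative.

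Intensities were corrected with normexp in limma 3.58.1 (R 4.3.3), which took the background from the detection p-values, and 16 was added as offset. After log2, the 8 arrays were quantile-normalized together. The brightest probe on average stood for a gene, and probes with a detection p under 0.01 were called detected. The 10491 genes detected on at least 2 arrays were tested with limma and Benjamini-Hochberg adjustment at 0.05, with sample type, Dnmt2 loss and Nsun2 loss as terms. An interaction fit and a fit of each loss within each sample type followed. The spread in these fits is that between arrays of different genotype, not between replicate animals, and the small number of arrays limits precision. The script was tested on simulated data.

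Pairs of single arrays were compared over genes detected on at least 1 of both, without a test. An undetected value was set to the higher of itself and the lowest detected value of its array. The genes named are those of the stalk, Rpsa, paralogs and their partners, those with the 6 largest differences in each direction for MEFs minus liver and the 3 highest and lowest in each pair, those not detected everywhere, and those whose probes disagreed by over 1. Genes named as examples of a list, of a place in the ribosome or as further members past 1.5-fold were added after their values were seen. Paralogs are the members whose symbol ends in l, or in l and a digit. The members and lists were chosen with earlier results of these data known. Alternatives were no background correction, an offset of 50, 2 other normalizations, the authors' values, the mean over probes, other detection filters, other fits, and leaving out each array.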

Additional observations from a re-analysis of the deposited data

Results flagged for a closer look

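Rps3a1, which encodes a small-subunit protein that contacts the initiation factor eIF3, moved in opposite directions in the knockouts of both sample types. Its log2 signal was lower than in wild type in all 3 MEF knockouts, with differences of −1.19 in the double knockout, −0.94 in Nsun2-/- and −1.05 in Dnmt2-/-. It was higher than in wild type in all 3 liver knockouts, by 0.11, 1.28 and 1.54 in the same order. The levels were 9.69, 9.94, 9.83 and 10.88 in double knockout, Nsun2-/-, Dnmt2-/- and wild-type MEFs, against 8.48, 9.65, 9.91 and 8.37 in the livers. The 3 differences of a sample type share its wild-type array. The difference between MEFs and liver was tested in limma and did not pass, with −0.83 (SE 0.916, adjusted p 0.934) for Dnmt2 loss and −0.46 (SE 0.916, adjusted p 0.975) for Nsun2 loss.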

How the results depend on the processing

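By replicate number no paired analysis was possible because each group has 1 array, all with the same number, so groups share fewer than 2 numbers. With MEF and liver arrays paired by genotype, 48 members were higher and 1 lower, as in the reported fit. For MEFs minus liver, members called higher numbered 46 to 53 over all settings, and members called lower numbered 1, except without the double knockout liver array, where none was called; over the arrays left out in turn the range was 0 to 1. The members' median lay between 1.01 and 1.19. The counts of 0 members for genotype stayed at 0 in all settings run. Scaling to the same median moved the members' median to −0.26 for Dnmt2-/- minus wild-type MEFs (all genes −0.07) and to −0.16 for double knockout minus Dnmt2-/- livers (all genes −0.09). Members whose small difference between MEFs and liver turned sign were Rpl22l1 (0.27 under scaling, 0.27 under quantile normalization within each sample type, 0.0014 with the authors' values, and −0.35 to 0.31 over the arrays left out in turn, above 0 without the double knockout MEF, Dnmt2-/- MEF or double knockout liver array), Rps27l (−0.088 under scaling and −0.081 within type) and Rpsa (−0.36 to 0.26 over the arrays left out, above 0 without the double knockout MEF, double knockout liver or wild-type liver array). The 11 members lower in double knockout than in wild-type MEFs were 9 to 12 under the alternatives. Counts that changed by over 1.5 times were those lower in double knockout than in Dnmt2-/- MEFs (4 with no background correction, an offset of 50 or the authors' values; 1 higher with the mean over probes), lower in double knockout than in Nsun2-/- MEFs (5 under scaling) and lower in Nsun2-/- than in wild-type MEFs (2 with the authors' values). In livers all such counts stayed between 0 and 4: for the double knockout against wild type 0, 1 and 0 lower with no background correction, an offset of 50 and the authors' values; for Nsun2-/- 0 lower under these, 2 lower with other detection filters and 2 higher under scaling, within-type normalization or no filter; for Dnmt2-/- 2 lower with the mean over probes or other filters and 2 higher under scaling; for the double knockout against the single knockouts 0 or 1 in either direction under the other backgrounds, scaling, within-type normalization or the authors' values. The cause of these shifts was not tested. Signal near background limits Rpl14, Rpl22l1, Rpsa and Rps23rg1, detected on 2 to 6 arrays.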

Other observations

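The 10 members with a pyrimidine tract at the annotated start and a value in the pair had a median difference of −0.16 between double knockout and wild-type MEFs, as had the 41 without one. The 6 members with TATAAA near the start were Rpl22, Rpl22l1, Rpl36a, Rpl39, Rplp0 and Rps2. Their median in that pair was −0.85, against −0.13 for the 45 without TATAAA that had a value. This split was made after the values had been seen and has no test. It was also not made at matched signal. Rplp0, Rpl22 and Rpl22l1 had mean signals under 12, where most members were lower in this pair. Rpl36a, Rpl39 and Rps2 were brighter and differed by −0.58, −0.23 and −0.10. Of the TOP mRNA genes outside the members, 12 of 15 were below 0 in double knockout minus wild-type MEFs, with a median of −0.28, and Npm1 was the 1 that was at least 1.5-fold lower (−0.64). Of 37 ribosome biogenesis genes 28 were below 0 in that pair, with a median of −0.22, and of 71 mitochondrial ribosomal protein genes 37, with a median of −0.05. Of all genes 5105 of 9683 were below 0 in that pair, with a median of −0.03.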
